A study of Mus musculus with 33 samples.

Results

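The genes described here are the keratins and the keratin-associated proteins of the mouse, 95 of the 22367 protein-coding genes in the GENCODE annotation of the mm9 build. They were taken by name alone: every protein-coding gene called Krt with a number (49 genes, 27 of type I and 22 of type II) or Krtap (46 genes). Family members annotated under another name would not be among them. Krt8 and Krt18, which simple epithelia use from the early embryo on, were left out by that rule and are given once at the end.

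Chromatin immunoprecipitation with sequencing (ChIP-seq) was made in E14 mouse embryonic stem cells (mESC), either wild type (WT) or Uhrf1 KO, and in embryoid bodies (EBs), the aggregates in which such cells differentiate, grown from both genotypes and taken at weeks 1, 2 and 3. Of 33 samples, 25 had a list of enriched regions and 8 were inputs, not analysed here. The lists cover H3K4me3 and H3K27me3 in both genotypes at all 4 stages, H3K9me3, Oct4, Sox2 and Nanog in mESC of both genotypes, and Uhrf1 in WT mESC. Each group was 1 library of 1 cell line per genotype, so the differences below have no replicate check and no test. The mESC were kept with LIF on gelatin or on plates coated with mouse embryonic fibroblasts, the EBs were started as hanging drops, and no list comes from a sorted epithelial cell.

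Keratins are the intermediate filament proteins of epithelia. A type I and a type II keratin pair to build a filament, and each layer of the epidermis, the mucosa and the hair follicle uses its own pairs, such as Krt5 with Krt14 in basal epidermis and Krt1 with Krt10 above it. Krtap proteins are small proteins rich in cysteine or in glycine and tyrosine that surround the hair keratins in the hair shaft, late in the differentiation of the follicle. Uhrf1 binds hemimethylated DNA and brings the maintenance methyltransferase Dnmt1 to it. H3K4me3 marks active or poised promoters, H3K27me3 is laid down by Polycomb over silent developmental genes, H3K9me3 marks heterochromatin, and a promoter with both H3K4me3 and H3K27me3 is called bivalent.

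The members lay in 4 clusters and 1 single place. All 27 type I keratins and 22 Krtap genes shared 1037.1 kb of chromosome 11 (99094075 to 100131185), where the Krtap genes lie between blocks of keratins. The 22 type II keratins filled 606.8 kb of chromosome 15 (101177875 to 101784718). Of the other Krtap genes, 19 were spread over 960.5 kb of chromosome 16 (88610954 to 89571428), 4 Krtap5 genes lay within 130.0 kb of chromosome 7 (149360437 to 149490408), and Krtap12-1 was alone on chromosome 10. Genes in a cluster share domains and are not independent of each other.

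Most members have a start poor in CpG, the dinucleotide at which mammalian DNA is methylated. From 250 bases before to 50 after the start, keratins held a median of 4 CpG and Krtap genes 2, against 11 over all protein-coding genes, and 10 Krtap windows held none. The letters TATAAA, searched on both strands, were present in 24 of 49 keratin and 38 of 46 Krtap windows (48.98% and 82.6%), against 13.4% of all promoters. CG was found in 95.1% of all promoter windows. The 250 bases upstream of 7 members are shown with each CpG in capitals, since the marks below differ among them: Krt19, Krt10 and Krt222 carried H3K4me3 in every list, Krt7 had it in EBs from week 2, Krt14 had it in Uhrf1 KO EBs, and Krtap9-1 and Krtap16-1 had none.
Krt19 (chr11:100009980-100010229, minus strand): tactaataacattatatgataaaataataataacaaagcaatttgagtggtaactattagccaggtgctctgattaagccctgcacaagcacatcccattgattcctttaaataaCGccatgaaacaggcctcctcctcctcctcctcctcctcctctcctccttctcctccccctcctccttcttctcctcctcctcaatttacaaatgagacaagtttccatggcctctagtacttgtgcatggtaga
Krt10 (chr11:99250679-99250928, minus strand): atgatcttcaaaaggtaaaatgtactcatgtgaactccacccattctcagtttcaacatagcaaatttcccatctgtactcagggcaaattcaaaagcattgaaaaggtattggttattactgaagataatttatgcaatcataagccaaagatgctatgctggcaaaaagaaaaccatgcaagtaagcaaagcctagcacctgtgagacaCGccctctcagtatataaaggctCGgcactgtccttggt
Krt222 (chr11:99105400-99105649, minus strand): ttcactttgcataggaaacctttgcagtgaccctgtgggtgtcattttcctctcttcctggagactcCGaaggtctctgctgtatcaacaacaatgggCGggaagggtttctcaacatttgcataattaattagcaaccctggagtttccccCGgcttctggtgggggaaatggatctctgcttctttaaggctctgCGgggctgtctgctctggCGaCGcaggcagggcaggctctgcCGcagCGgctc
Krt7 (chr15:101241224-101241473, plus strand): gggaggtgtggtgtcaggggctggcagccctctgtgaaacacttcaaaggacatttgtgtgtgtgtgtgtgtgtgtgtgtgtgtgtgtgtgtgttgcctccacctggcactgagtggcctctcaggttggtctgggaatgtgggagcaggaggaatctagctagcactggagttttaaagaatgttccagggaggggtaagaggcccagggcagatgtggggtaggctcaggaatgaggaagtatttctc
Krt14 (chr11:100068863-100069112, minus strand): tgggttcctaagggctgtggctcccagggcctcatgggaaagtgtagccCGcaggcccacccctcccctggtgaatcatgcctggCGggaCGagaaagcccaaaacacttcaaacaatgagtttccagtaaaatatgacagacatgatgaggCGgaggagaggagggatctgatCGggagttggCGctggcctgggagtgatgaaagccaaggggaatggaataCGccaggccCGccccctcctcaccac
Krtap9-1 (chr11:99734453-99734702, plus strand): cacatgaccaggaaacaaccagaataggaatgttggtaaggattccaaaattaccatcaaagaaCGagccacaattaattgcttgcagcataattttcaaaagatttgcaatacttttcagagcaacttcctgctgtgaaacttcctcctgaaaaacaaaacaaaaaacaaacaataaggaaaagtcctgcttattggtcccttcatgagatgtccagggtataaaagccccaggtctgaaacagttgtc
Krtap16-1 (chr16:88874515-88874764, minus strand): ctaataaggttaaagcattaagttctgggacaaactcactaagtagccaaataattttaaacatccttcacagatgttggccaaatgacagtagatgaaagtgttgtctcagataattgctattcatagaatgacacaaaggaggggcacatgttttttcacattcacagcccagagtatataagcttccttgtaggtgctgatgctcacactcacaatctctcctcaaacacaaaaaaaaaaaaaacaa
The 3 keratins marked in every list did not have the most CpG: Krt19 held 1 CpG in the whole 300-base window, Krt10 held 2 and Krt222 held 9. The 14 keratins with H3K4me3 in at least 1 list had a median of 6.5 CpG, against 4 in the other 35. The window with the most CpG among the members, 23 at the hair keratin Krt83, carried no H3K4me3 in any list.

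A promoter was counted as marked when a deposited domain came within 2 kb of the gene's start for H3K4me3, or within 5 kb for H3K27me3, H3K9me3 and Uhrf1. The H3K4me3 lists held 11509 to 39898 domains and the H3K27me3 lists 722 to 9488. The H3K27me3 list of Uhrf1 KO mESC was the shortest by far and covered 84.1 Mb, against 960 Mb in WT mESC. In EBs the WT lists covered 101, 1165 and 791 Mb at weeks 1, 2 and 3, and the Uhrf1 KO lists 180, 467 and 420 Mb. Of 6 pluripotency genes, 5 had H3K4me3 in mESC of each genotype (Pou5f1, Sox2, Nanog, Zfp42 and Tdgf1), and the same 5 had it at week 3 in both. The genotypes differed at week 1, when Pou5f1, Sox2, Zfp42 and Tdgf1 had it in WT but only Sox2 in Uhrf1 KO. Of 5 epithelial genes 4 had H3K4me3 in WT at mESC and at week 3, and 3 and 4 in Uhrf1 KO, so these lists do not mark out an epithelium. The 5 fibroblast genes checked for feeder cells had H3K4me3 in WT mESC, and 4 of them in Uhrf1 KO mESC. All 5 also had H3K27me3 in WT mESC, and only Col1a1 had it in Uhrf1 KO mESC. The part of feeder cells in the values below was not tested. The promoter of Uhrf1 itself was active in all 8 pairs of lists, which does not check the deletion.

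H3K4me3 was scarce over the whole family. In WT mESC it was present at 7 of 49 keratins (14.3%, 95% interval 7.10 to 26.7) and at 0 of 46 Krtap genes, where 63.2% of all protein-coding genes had it. Keratins exceeded Krtap genes by 14.3 percentage points (3.75 to 26.7). The intervals here and below count genes only and are too narrow where genes share a domain. At weeks 1, 2 and 3 the WT counts for keratins were 3, 7 and 5, beside 62.1%, 65.7% and 66.2% of all genes, and no Krtap gene was marked. Uhrf1 KO gave 4 keratins in mESC and 4, 8 and 6 in EBs, beside 57.0%, 57.0%, 64.5% and 65.8% of all genes. The difference between genotypes over the 49 keratins was -6.12 points in mESC (-17.4 to 4.28) and 2.04 points at each EB stage, so all 4 intervals held 0. The keratins with the mark were followed from stage to stage. From WT mESC to week 1, 4 of 7 marked keratins went without (beside 7.6% of all marked promoters) and 0 of 42 were newly marked (beside 10.1%). From week 1 to week 2, 4 of 46 were newly marked (8.70%, beside 13.7%) and 0 of 3 went without (beside 2.5%), and from week 2 to week 3, 2 of 7 went without (Krt6a and Krt20, beside 3.71%) and 0 of 42 were newly marked (beside 8.65%). In Uhrf1 KO the newly marked keratins were 1 of 45 at week 1 (beside 13.4%), 4 of 45 at week 2 (8.89%, beside 19.4%) and 0 of 41 at week 3 (beside 8.95%). Those that went without were 1 of 4 at week 1 (beside 10%), 0 of 4 at week 2 (beside 1.53%) and 2 of 8 at week 3 (Krt14 and Krt20, beside 2.86%). Over both genotypes and all stages, 35 keratins and 45 Krtap genes never had H3K4me3, among them Krt5, the type II partner of Krt14, and all 14 hair shaft keratins found in the annotation.

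**Figure D1:**
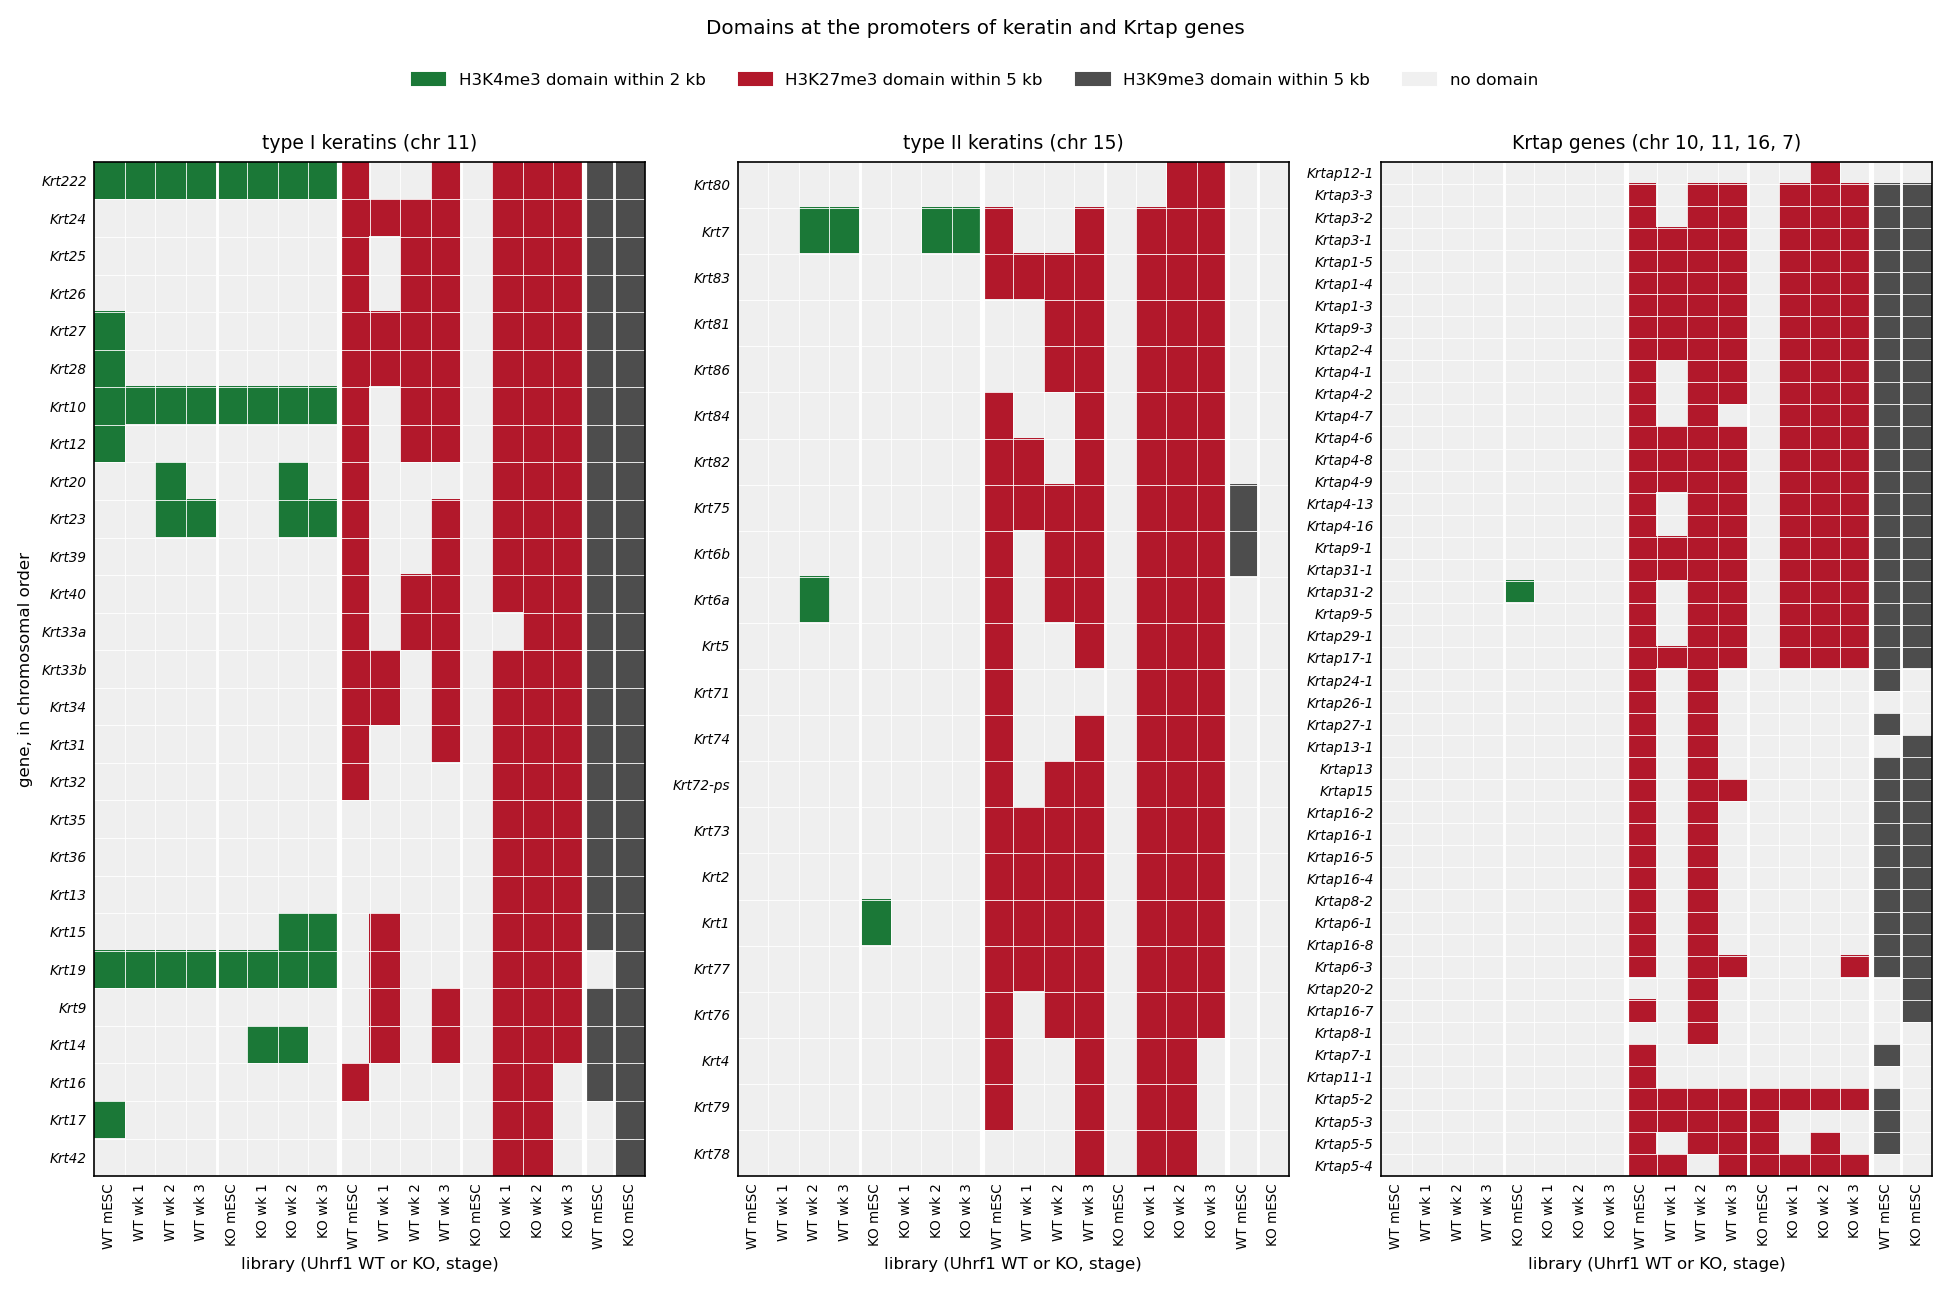
Each row is 1 of the 95 genes in chromosomal order and each column 1 library (WT or Uhrf1 KO, mESC or EB week), with a filled cell where a domain lies within 2 kb (H3K4me3, green) or 5 kb (H3K27me3, red; H3K9me3, grey) of the start. H3K4me3 is confined to 14 keratins and 1 Krtap gene, while the Uhrf1 KO EB columns of H3K27me3 are filled for nearly all keratins and for the chromosome 11 Krtap genes.

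Krt10, Krt19 and Krt222 had H3K4me3 in all 8 lists. At Krt10, the type I keratin of the suprabasal epidermis, the domain was 29.9 kb long in WT mESC and 6.8, 12 and 6 kb in WT EBs, with a mean read count at the 62.5th, 84.1st, 83.3rd and 92.7th percentile of its list. In Uhrf1 KO it was 11.7 kb in mESC and 10.2, 11.9 and 12 kb in EBs, at the 87.0th, 74.4th, 85.4th and 79.5th percentile. These percentiles lay above 60 in all 8 lists, and in WT at weeks 1 and 3 the domain ended within 2 kb of the start without covering it. Krt19, a type I keratin of simple and ductal epithelia, had domains of 9.1, 5.6, 6.4 and 5.6 kb in WT and 6.5, 4.2, 7.7 and 6.4 kb in Uhrf1 KO. Their percentiles were 64.6, 42.0, 73.3 and 69.7 in WT and 73.1, 21.0, 51.6 and 45.6 in Uhrf1 KO, lower in Uhrf1 KO at each EB stage and higher in mESC. At weeks 1 and 3 in WT and at all 3 weeks in Uhrf1 KO the domain ended short of the annotated start of Krt19 but within 2 kb of it. Krt222, a type I keratin at the edge of the cluster, shared its domain with the start of the chromatin remodelling gene Smarce1, 13.1 kb away, in WT mESC, WT week 3 and Uhrf1 KO mESC. In the other 5 lists the domain was 0.7 to 4.2 kb long and held no other coding start.

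Keratins marked in WT mESC but not in the Uhrf1 KO list of the same stage were Krt12, Krt17, Krt27 and Krt28, 4 of the 7 marked genes (57.1%), where 12.0% of all marked promoters went without it. Krt28 and Krt27 are keratins of the inner root sheath of the hair follicle, and the Krt28 start lay in the 29.9 kb domain of Krt10. Krt27 had a domain of 1.3 kb, which ended 318 bp short of the start. Krt12, the keratin of the corneal epithelium, had 2.6 kb, and Krt17, which is induced in wounded and appendage epidermis, had 3.9 kb. None of these 4 had H3K4me3 in any EB list of either genotype. When the longer WT mESC list was shortened to the same number of domains as the Uhrf1 KO list, 4 members in place of 7 were marked in WT and the sign of the difference over members turned, from -2.11 to 1.05 points.

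The simple epithelial keratins carried H3K4me3 in EBs of both genotypes. Krt7, Krt20 and Krt23 had none in mESC or at week 1 and all had it at week 2 in both genotypes, and Krt7 and Krt23 had it at week 3. Together with Krt19 this made 4 of 4 genes of the simple epithelium list at week 2 and 3 of 4 at week 3, in WT and in Uhrf1 KO alike. Among all genes 65.7% and 66.2% had it at weeks 2 and 3 in WT, and 64.5% and 65.8% in Uhrf1 KO. With a list of 4 genes, 3 of 4 lay near these shares. From mESC to week 3, 2 of 42 unmarked keratins were newly marked in WT (4.76%), beside 15.7% of all unmarked promoters, and 3 of 45 in Uhrf1 KO (6.67%), beside 24.3%. Krt7, a type II keratin of simple and glandular epithelia, had domains of 6.8 and 6.8 kb in WT at weeks 2 and 3 and 4.2 and 3.2 kb in Uhrf1 KO, with percentiles of 50.1 and 29.1 against 18.8 and 19.1. Krt23 had 4 and 5.2 kb in WT against 0.7 and 3.2 kb in Uhrf1 KO. Krt20, a keratin of intestinal and urothelial surface cells, had 6.4 kb in WT and 2.1 kb in Uhrf1 KO at week 2. The domains at Krt7, Krt20 and Krt23 were shorter in Uhrf1 KO at each of these stages, while that at Krt19, given above, was longer at weeks 2 and 3.

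H3K4me3 at a basal epidermal keratin was present in Uhrf1 KO EBs only. Krt14 was marked at weeks 1 and 2 and Krt15, a basal keratin of the follicle bulge, at weeks 2 and 3, and neither was marked in WT at any stage. The Krt14 domains were 1.05 and 0.7 kb long and lay short of the start, at the 7.27th and 47.4th percentile of mean count. Those at Krt15 were 5.6 and 4.8 kb long and covered the start, at the 8.63rd and 4.29th percentile. Of keratins unmarked in WT, 1 of 46 was marked in Uhrf1 KO at week 1 (Krt14), 2 of 42 at week 2 and 1 of 44 at week 3 (Krt15), or 2.17%, 4.76% and 2.27%, beside 3.10%, 6.61% and 6.05% of all unmarked promoters. These shares lay below those of all genes. Krt6a, an induced epidermal keratin, was marked in WT at week 2 alone, by 1.2 kb, and was the 1 of 7 keratins marked in WT but not in Uhrf1 KO there (beside 5.33%), with 0 of 5 at week 3 (beside 3.73%). Krt1 and Krtap31-2 were marked in Uhrf1 KO mESC alone, by domains of 15.6 and 18.2 kb whose mean counts stood at the 0.539th and 0.174th percentile of the list.

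**Figure D2:**
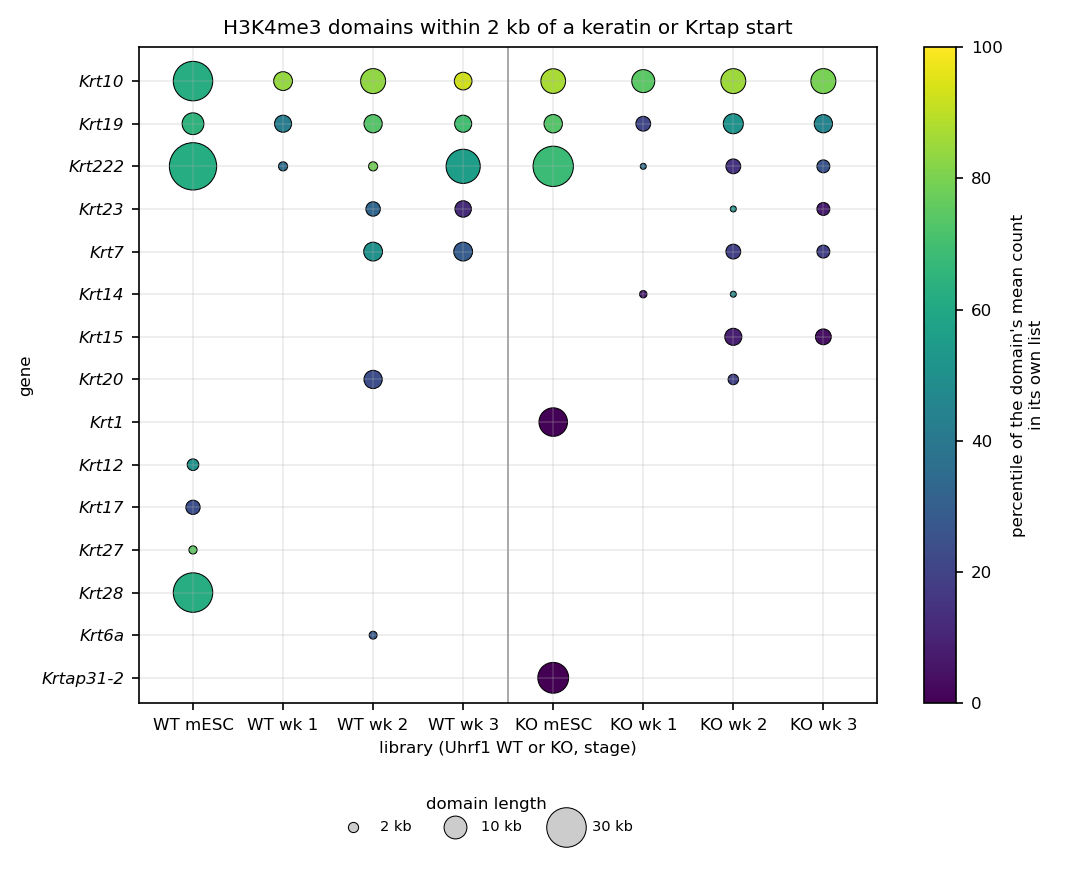
Each circle is an H3K4me3 domain within 2 kb of the start of the gene on the vertical axis in the library on the horizontal axis; its area grows with the length of the domain in kb and its colour gives the percentile of its mean count among all domains of that list. Krt10, Krt19 and Krt222 have a circle in all 8 columns, Krt7 and Krt23 in the week 2 and week 3 columns of both genotypes, and Krt14 and Krt15 in Uhrf1 KO EB columns only.

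H3K27me3 was far more frequent than H3K4me3 at these genes in every WT list. In mESC it was present at 36 of 49 keratins (73.5%, 59.7 to 83.8) and at 43 of 46 Krtap genes (93.5%, 82.5 to 97.8), beside 34.9% of all protein-coding genes, and the difference of keratins from Krtap genes was -20.01 points (-34.4 to -4.94). At week 1 the counts were 16 and 15, beside 20.5% of all genes, and the families differed by 0.04 points. Week 2 set the families far apart, with 21 keratins and 42 Krtap genes (difference -48.4 points, -62.3 to -30.3, beside 29.8% of all genes). At week 3 there were 37 keratins and 27 Krtap genes (16.8 points, -2.01 to 34.2, beside 33.2%). So the order of the families was not the same from stage to stage in WT. Of the 36 keratins marked in mESC 24 went without at week 1 (66.7%, beside 58.6% of all marked promoters), and of the 28 unmarked at week 2, 16 were newly marked at week 3 (57.1%, beside 16.5%) while none of 21 went without (beside 27.4%). On chromosomes 11 and 15 the mark was more frequent in the cluster than around it at week 3: 38 of the 49 chromosome 11 members carried it but only 19 of the 75 other coding genes within 1 Mb outside the cluster (difference 52.2 points, 34.9 to 64.9), and on chromosome 15 the counts were 20 of 22 and 11 of 55 (70.9 points, 48.5 to 81.6). On chromosome 16 the order at week 3 was the opposite, 2 of 19 members against 3 of 10 genes outside, with an interval that held 0 (-19.5 points, -50.7 to 8.90). At week 1 neither of the first 2 clusters differed from its surroundings beyond the interval, with -2.48 points on chromosome 11 and 8.18 on chromosome 15.

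The 9 keratins with H3K27me3 in all 4 WT lists were the epidermal Krt1, Krt2 and Krt77, the inner root sheath Krt27, Krt28 and Krt73, and Krt24, Krt75 and Krt83. Krt13, Krt17, Krt35, Krt36, Krt42 and Krt80 had it in none. Krt1 thus kept the mark throughout, whereas its partner Krt10 lacked it at week 1. Krt5 and its partner Krt14 were marked together at week 3 alone, with Krt5 also marked in mESC and Krt14 at week 1. Hair shaft keratins had it at 10, 4, 5 and 11 of 14 genes through the 4 stages and inner root sheath keratins at 7, 3, 5 and 6 of 7. All genes had it at 34.9%, 20.5%, 29.8% and 33.2%, and the hair shaft counts at weeks 1 and 2 lay near these shares. In the simple epithelium list 3, 1, 0 and 2 of 4 genes carried it, and the stage with 0 was week 2, when all 4 had H3K4me3.

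In Uhrf1 KO mESC no keratin and 4 Krtap genes had H3K27me3, beside 7.57% of all genes. Around the chromosome 11 cluster 23 of 75 coding genes within 1 Mb had it against 0 of 49 members (-30.7 points, -41.8 to -18.9). On chromosome 15 the counts were 6 of 55 and 0 of 22 (-10.9 points, -21.8 to 5.05). The order on chromosome 7 was the opposite, with 25 of 54 and 4 of 4 (53.7 points, 2.99 to 66.3), and on chromosome 16 both counts were 0. The 36 keratins marked in WT were all unmarked in Uhrf1 KO (difference -73.5 points, -83.8 to -57.9), as were 39 of 43 Krtap genes (-84.8 points, -91.6 to -68.8), beside 84.5% of all marked promoters, and none of the 13 unmarked keratins was marked in Uhrf1 KO (beside 3.34%). The 4 Krtap genes with it in both were Krtap5-2, Krtap5-3, Krtap5-4 and Krtap5-5 on chromosome 7, all inside 1 domain of 994.5 kb, the seventh longest of the 722. The Uhrf1 KO mESC list was short, and its domains had a low median mean count of 0.914. The median was 4.93 in WT mESC and 5.14 to 12.2 in the EB lists of H3K27me3. Whether these counts are scaled to mapped reads is not stated, and the part of a weak library was not tested. The outcome also differed with how WT was matched to this list. With WT cut to the same number of domains, 70 members were marked in WT and 4 in Uhrf1 KO (-69.5 points, keratins 33 and 0, Krtap genes 37 and 4). When WT mESC was shortened, by mean count, to the same covered length as Uhrf1 KO, an alternative added with the data in view, 4 members were marked in each and the difference was 0.

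In Uhrf1 KO EBs almost every keratin carried H3K27me3. The counts were 47 of 49 at week 1, 49 of 49 at week 2 and 43 of 49 at week 3 (95.9%, 100% and 87.8%), beside 21.1%, 24.1% and 19.5% of all genes. Against WT the differences were 63.3 (46.6 to 75.0), 57.1 (41.5 to 70.0) and 12.2 points (-2.12 to 26.4), week by week, and over all genes they were 0.62, -5.72 and -13.7 points. Of the 33 keratins without the mark in WT at week 1, 31 had it in Uhrf1 KO (93.9%, beside 7.91% of all such promoters). At week 2 all 28 such keratins had it (beside 13.6%) and at week 3 9 of 12 (75.0%, beside 4.32%). Of the keratins with the mark in WT, 0 of 16 at week 1, 0 of 21 at week 2 and 3 of 37 at week 3 (Krt4, Krt78 and Krt79) were without it in Uhrf1 KO, beside 27.7%, 51.2% and 50.1% of all marked promoters. The 2 keratins unmarked at week 1 were Krt33a and Krt80, and the 6 at week 3 were Krt4, Krt16, Krt17, Krt42, Krt78 and Krt79, at the right-hand ends of their clusters. Krt13, a mucosal keratin, and the hair keratins Krt35 and Krt36, which had no H3K27me3 in any WT list, had it at all 3 weeks in Uhrf1 KO. Another alternative added with the data in view cut the list of each week that covered more to the covered length of the other. The keratin difference was then 32.7 (12.5 to 49.4), 93.9 (81.2 to 97.9) and 22.4 points (6.11 to 37.6). Uhrf1 KO alone was cut at week 1. At weeks 2 and 3 WT alone was cut, which could not lower the difference, so only at week 1 could its sign have changed.

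**Figure D3:**
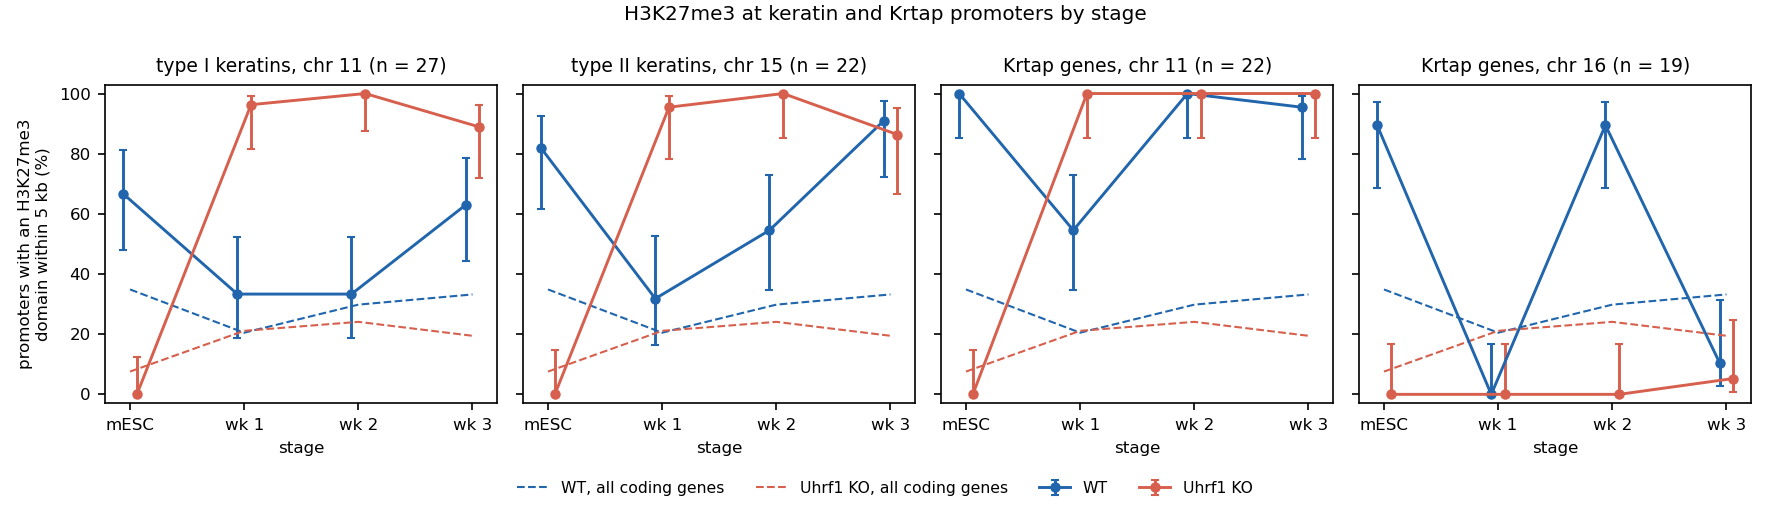
Each panel gives the percentage of promoters with an H3K27me3 domain within 5 kb against stage, for WT (blue) and Uhrf1 KO (red), with Wilson 95% intervals over genes and 1 library per point; dashed lines are all protein-coding genes. Both keratin types and the chromosome 11 Krtap genes are above 85% in every Uhrf1 KO EB list, while the chromosome 16 Krtap genes are at 0 to 5.26% there.

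In Uhrf1 KO EBs at weeks 2 and 3 the mark lay in long domains, 1 to a cluster on chromosomes 11 and 15. At week 2 in Uhrf1 KO 1 domain of 1047.6 kb (chromosome 11, 99093601 to 100141200) took in the promoters of all 49 members there and was the tenth longest of 4180 in its list. At week 3 a domain of 1004.4 kb, the eighth longest of 3722, took in 46, and at week 1 8 domains covered 82.9% of the cluster. These shares of the cluster were 82.9%, 100% and 96.8% at weeks 1, 2 and 3, where H3K27me3 covered 6.78%, 17.6% and 15.8% of the genome. WT lists covered 83.8% of the same stretch in mESC and 30.9%, 60.6% and 83.3% in EBs, where 36.1%, 3.81%, 43.9% and 29.8% of the genome was covered. All 9 type I keratins unmarked in WT mESC (Krt35, Krt36, Krt13, Krt15, Krt19, Krt9, Krt14, Krt17 and Krt42) lay past the end of a WT domain of 853.2 kb, at the right-hand end of the cluster. On chromosome 15 Uhrf1 KO covered 92.6%, 100% and 88.1% of the cluster in EBs, at week 2 by 1 domain of 678.6 kb over all 22 type II keratins, and WT covered 80.7%, 25.1%, 49.5% and 89.6% from mESC to week 3. Outside the clusters the same Uhrf1 KO lists marked fewer genes: at week 2, 29 of 75 coding genes within 1 Mb of the chromosome 11 cluster against 49 of 49 members (difference 61.3 points, 47.9 to 71.5), and on chromosome 15, 10 of 55 against 22 of 22 (81.8 points, 62.6 to 89.8). All 34 other coding genes with a start inside the chromosome 11 cluster were marked at weeks 2 and 3 as well. They carry provisional Gm or Rik names, and whether they belong to the keratin or Krtap families was not checked.

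**Figure D4:**
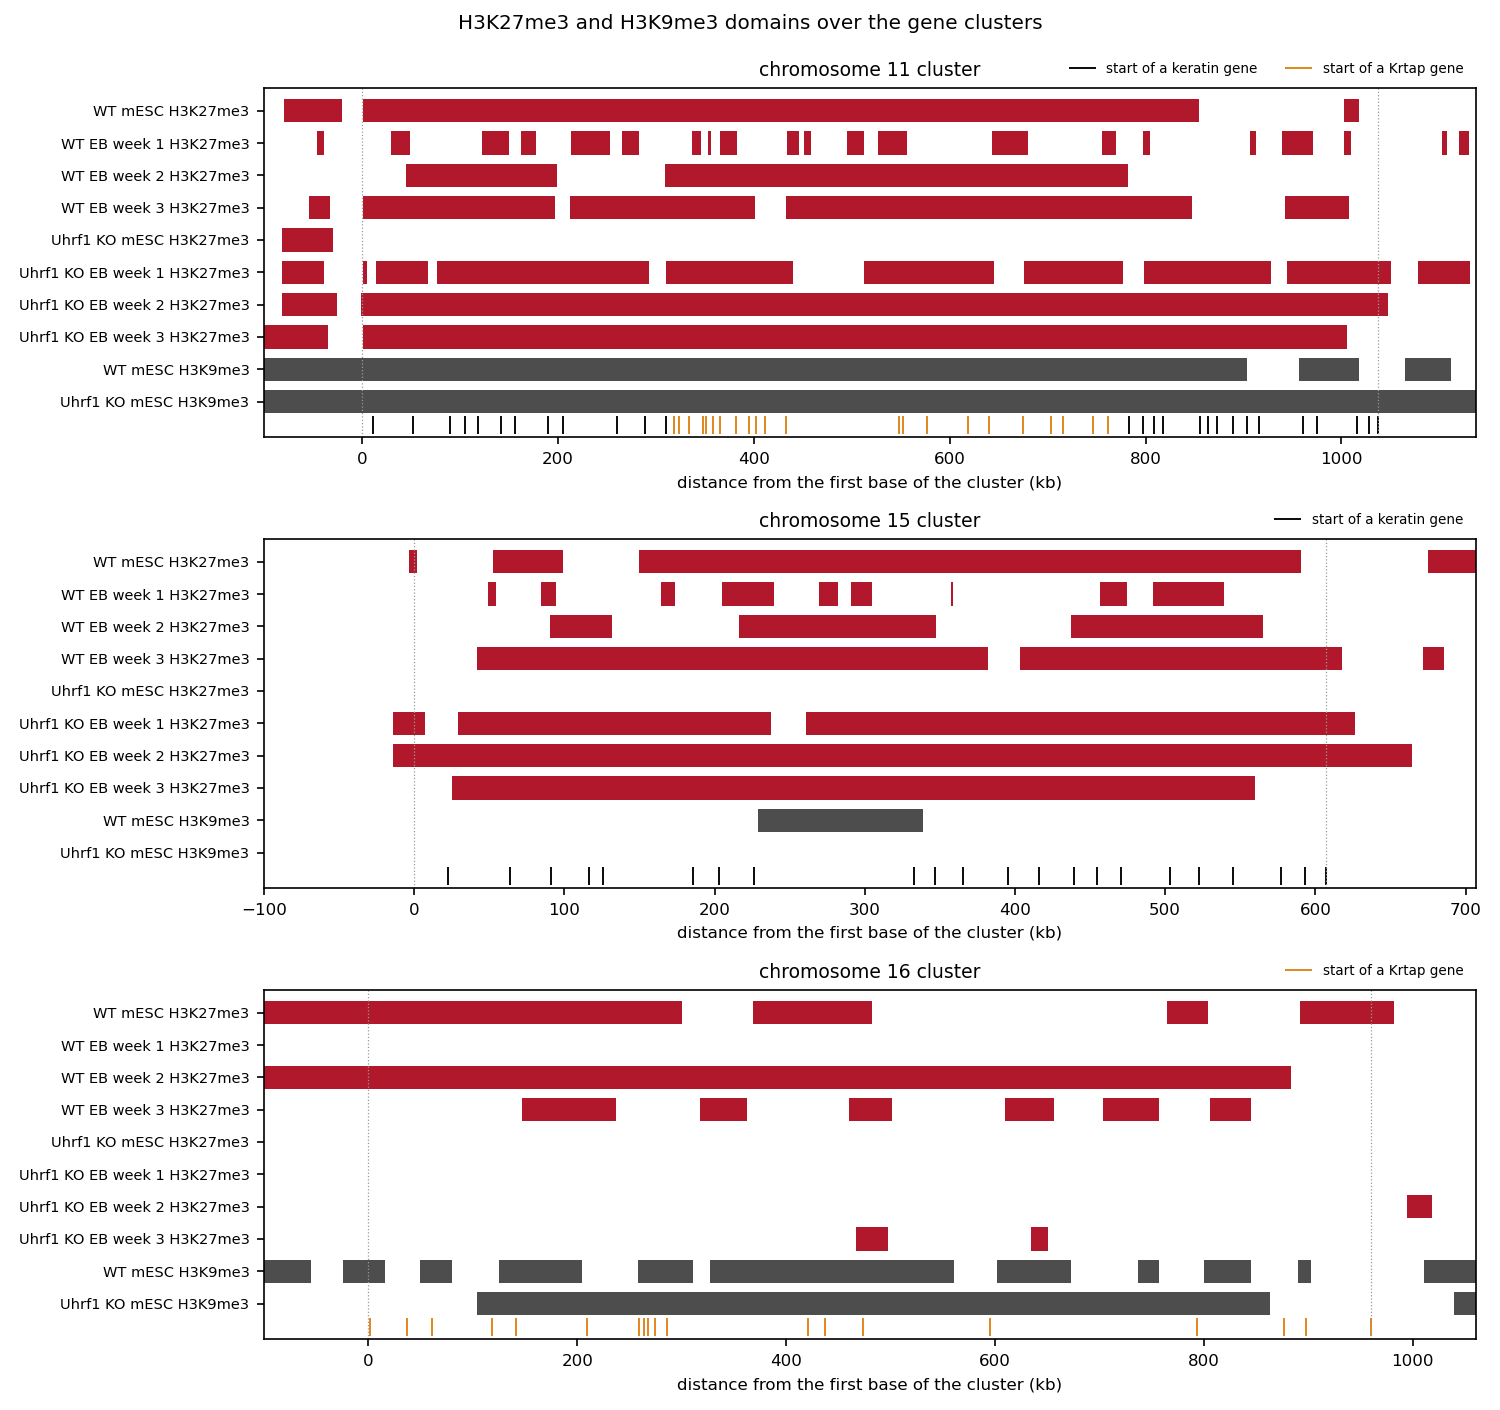
Bars are the deposited H3K27me3 (red) and H3K9me3 (grey) domains of each list over 3 clusters, against distance in kb from the first base of the cluster, with ticks at the starts of keratins (black) and Krtap genes (orange) and dotted lines at the cluster's ends. In Uhrf1 KO EBs at weeks 2 and 3 a single H3K27me3 domain lies over most or all of the chromosome 11 and of the chromosome 15 cluster, while the chromosome 16 cluster has H3K27me3 over 4.87% of its length at week 3 and none at weeks 1 and 2.

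H3K27me3 at Krtap genes differed by cluster. The 22 on chromosome 11, among the keratins, had H3K27me3 at 22, 12, 22 and 21 genes in WT and at 0, 22, 22 and 22 in Uhrf1 KO. The 19 on chromosome 16 had it at 17, 0, 17 and 2 in WT and at 0, 0, 0 and 1 in Uhrf1 KO, and the 1 was Krtap6-3. The 4 Krtap5 genes on chromosome 7 had it at 4, 3, 3 and 4 in WT and at 4, 2, 3 and 2 in Uhrf1 KO. Krtap12-1 had it at week 2 in Uhrf1 KO alone. Over all 46 the weekly differences between genotypes were 19.6 points (5.72 to 32.1), -34.8 points (-50.0 to -17.1) and -4.35 points (-13.4 to 4.88). At week 2, 18 of the 42 Krtap genes marked in WT had no mark in Uhrf1 KO (42.9%, beside 51.2% of all promoters marked in WT), 17 of them on chromosome 16. The chromosome 16 genes lay under 1 WT domain of 1101.6 kb that reached past the cluster, with a mean count at the 48.1st percentile, in a list that covered 43.9% of the genome. With the lists brought to equal covered length in the way given above, the Krtap differences changed sign at all 3 weeks, to -30.4 points (1 gene in Uhrf1 KO and 15 in WT), 56.5 points (26 and 0) and 21.7 points (25 and 15).

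Keratins thus exceeded Krtap genes in H3K27me3 in each Uhrf1 KO EB list, by 43.7, 43.5 (28.3 to 57.8) and 33.4 points (15.3 to 49.0) in weekly order. Within the chromosome 11 cluster, where the families lie side by side, there was no such order. There 26 of 27 keratins and 22 of 22 Krtap genes were marked at week 1, all genes of both at week 2, and 24 of 27 and 22 of 22 at week 3.

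Read together as promoter classes, most keratins of Uhrf1 KO EBs were repressive or bivalent, with 2, 0 and 6 of 49 without a mark at weeks 1, 2 and 3. WT had 2, 2, 5 and 1 active keratins (H3K4me3 alone) from mESC to week 3, and Uhrf1 KO had 4 in mESC and 0 at each week, where 46.3%, 51.1% and 54.5% of all genes were active. Bivalent keratins numbered 5, 1, 2 and 4 in WT (beside 18.3%, 15.2%, 13.7% and 19.6% of all genes) and 0, 4, 8 and 6 in Uhrf1 KO (beside 4.29%, 10.7%, 13.4% and 11.3%), so their shares in Uhrf1 KO EBs lay near those of all genes. At week 2 the 5 active keratins of WT (Krt7, Krt19, Krt20, Krt23 and Krt222) were all bivalent in Uhrf1 KO, beside 9.67% of all promoters active in WT, and Krt14 and Krt15, without a mark in WT, were bivalent too. Krt19 and Krt222 were active in WT and bivalent in Uhrf1 KO at 2 stages, and Krt15 was without a mark and bivalent at 2. A further 18 keratins were without a mark in WT and repressive in Uhrf1 KO at 2 or 3 of the stages, and at 3 these were Krt13, Krt32, Krt35, Krt36 and Krt71. At weeks 1, 2 and 3 this held for 29 of 31, 21 of 23 and 7 of 11 keratins without a mark in WT, beside 9.59%, 20.1% and 6.25% of all such promoters. The opposite pair, repressive in WT and no mark in Uhrf1 KO, was seen at 2 or more stages in Krt4, Krt79 and 16 Krtap genes, mESC among the stages in all but Krtap5-3. From mESC to week 3 it held for 96.8%, 0%, 0% and 9.09% of keratins repressive in WT. For Krtap genes the shares were 88.4%, 6.67%, 42.9% and 11.1%, beside 87.1%, 23.7%, 60.3% and 48.2% of all such promoters. In EBs both families thus lay below all genes. H3K4me3 and H3K27me3 come from separate libraries of bulk cells, in which both marks on 1 cell and each mark on different cells cannot be told apart, nor can fewer cells with a mark and less of it per cell.

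H3K9me3, measured in mESC only, split the family by chromosome. In WT it was present at 26 of 49 keratins (53.1%) and 38 of 46 Krtap genes (82.6%), beside 29.7% of all genes, a difference of -29.5 points (-45.6 to -10.8). By cluster this was 24 of 27 type I keratins, 22 of 22 Krtap genes on chromosome 11, 13 of 19 on chromosome 16 and 3 of 4 on chromosome 7, but 2 of 22 type II keratins (Krt75 and Krt6b). On chromosome 11 a domain of 1024.2 kb took in 43 promoters and H3K9me3 covered 93.0% of the cluster, against 18.1% on chromosome 15. The type I genes without it were Krt17, Krt19 and Krt42. Outside the chromosome 11 cluster 26 of 75 coding genes were marked, 59.2 points fewer than the members (43.9 to 69.8). In Uhrf1 KO 27 keratins and 35 Krtap genes had it, beside 40.1% of all genes (25.1% of promoters marked in WT were without it and 25.4% of the others had it), and the differences from WT were 2.04 points (-7.45 to 11.4) and -6.52 points (-20.1 to 7.08). The Uhrf1 KO domain over chromosome 11 was 26415 kb long, the longest of its list, and took in all 75 genes outside the cluster too. Type II keratins had none in Uhrf1 KO, and neither had the 4 Krtap5 genes. Over all members the sign of the difference turned from -2.11 points to 1.05 when 50% of the window had to be covered, and to 9.47 when the lists were cut to equal number.

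Uhrf1 windows touched 3 of the 95 members in WT mESC: 0 of 49 keratins and 3 of 46 Krtap genes (6.52%, difference -6.52 points, -17.5 to 1.91), beside 6.10% of all genes. These were Krtap4-13 and Krtap9-5 on chromosome 11 and Krtap5-2 on chromosome 7, and of the 3 starts only that of Krtap5-2 lay inside a window. All 3 had H3K9me3 and H3K27me3 in WT mESC. Uhrf1 windows covered 4.82% of the chromosome 11 cluster, 1.65% of that on chromosome 15, 3.12% of that on chromosome 16 and 15.1% of that on chromosome 7, beside 5.14% of the genome.

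Few members had a pluripotency factor nearby in WT. In WT mESC an Oct4 summit lay within 10 kb of 5 members (5.26%, beside 12.5% of all genes), a Sox2 summit near 2 (2.11%, beside 9.0%) and a Nanog summit near 2 (2.11%, beside 2.54%). Krt222 was the only keratin with a summit within 10 kb in WT: the Oct4 summit lay at -129 bp and the Sox2 summit at -197 bp from the start (negative is upstream), with 53 and 17 reads. The octamer ATGCAAAT, the sequence that Oct4 prefers, stood there on the opposite strand from 134 to 127 bases before the start, visible as atttgcat in the sequence above. The octamer was looked for after the summit was seen, on both strands, and 1.73% of all promoter windows hold it. In Uhrf1 KO the Sox2 summit was at -186 bp with 24 reads, and no Oct4 summit lay within 10 kb of any member (beside 0.335% of all genes). Krtap31-2 had summits of all 3 factors in WT from 1707 to 1781 bp downstream of its start, and Nanog and Sox2 summits at nearly the same place in Uhrf1 KO, with 42 and 32 reads against 19 and 26 in WT. In Uhrf1 KO Nanog lay near 11 members (11.6%, beside 10.2%) and Sox2 near 13 (13.7%, beside 37.8%), among them the keratins Krt12, Krt20, Krt9 and Krt42 with both, where Krt12 and Krt20 share their summits. The lists differ in length between genotypes, from 576 to 20755 summits.

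The genes that govern keratins and those used beside them were described in the same lists. Of 16 regulators of epidermis and hair follicle, 14, 13, 15 and 14 had H3K4me3 in WT from mESC to week 3 and 13, 10, 14 and 14 in Uhrf1 KO, each above the share of all genes. H3K27me3 was present at 10, 14, 10 and 11 in WT and at 3, 14, 11 and 10 in Uhrf1 KO, again each above the share of all genes. Grhl2 and Tcfap2a (Tfap2a), which act in surface ectoderm, were bivalent in all 7 lists other than Uhrf1 KO mESC, where both were active. Trp63, the master regulator of stratified epithelia, had no mark at its annotated start in 7 of 8 and was bivalent in WT at week 2. Hoxc13, a regulator of hair keratins, was bivalent in all but WT week 1, when it was repressive, and Foxn1, another factor of the hair follicle, never had H3K4me3. Of 19 genes of the cornified envelope, trichohyalin and desmosome list, 9, 4, 7 and 8 had H3K4me3 in WT and 5, 4, 7 and 7 in Uhrf1 KO. Each of these counts was below the share of all genes. Their H3K27me3 counts were 13, 6, 12 and 11 in WT, beside 34.9%, 20.5%, 29.8% and 33.2% of all genes. In WT mESC Ivl, Flg, Hrnr and most others of the cornified envelope were repressive, as most keratins were. In Uhrf1 KO the counts were 0, 8, 5 and 8, beside 7.57%, 21.1%, 24.1% and 19.5%, so week 2 lay near all genes. The near-complete marking that keratins had in Uhrf1 KO EBs was not seen.

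Krt8 and Krt18, the pair of simple epithelia, lie next to the chromosome 15 cluster, with starts 50.1 and 73.9 kb past its end. Krt8 had H3K4me3 in 7 of 8 lists, all but Uhrf1 KO mESC, and H3K27me3 in 1, at week 2 in Uhrf1 KO, when the 678.6 kb domain ended past its start. Krt18 had H3K4me3 in all 8 lists and H3K27me3 in 2, WT mESC and WT week 3.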

How the data were processed

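Reads were mapped by the authors to the mm9 genome with Bowtie2 2.1.0 and histone domains were called against input with RSEG, 1 list per library. For each domain the authors deposited its mean read count over bins as a signal, and a domain score that is larger for longer domains. The methods scale read counts to total mapped reads. Whether this holds for the signal in the domain lists is not stated in the sources used here. So both were used to rank domains within a list, and only the median H3K27me3 signal was set beside that of other lists. Factor files deposited by the authors hold MACS summits with a signal in reads. Uhrf1 windows of 10 kb were deposited with the other column, a window name, and no score. Library totals were not used here, so the depth behind each list was not weighed. Groups follow the labels.

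Starts came from the GENCODE annotation of mm9. A promoter was marked when at least 1 bp of a domain fell in its window. Shares have Wilson and differences Newcombe 95% intervals (paired between genotypes). With 1 library per group no test was possible. Members, lists and alternatives were chosen with earlier results of these data known. Named genes were the members with H3K4me3 in WT mESC or in all lists of a genotype, in 1 genotype at 2 stages, or gained by week 3 in both, the Krtap gene with H3K4me3 in the most lists, those that differed in class alike at 2 stages, 10 widely studied keratins, and all members of counts up to 5. Krt85 and Krt87 were not found in the annotation, Krt72 is listed there as Krt72-ps and was counted among other keratins, and 1 gene model was used for Flg. Sequences were read from the NCBIM37 (mm9) genome with pysam 0.24.0, and protein sequences were not used here. Python 3.11.15, NumPy 2.4.6 and matplotlib 3.10.9 were used. Overlap calls and intervals were tested on simulated data.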

Additional observations from a re-analysis of the deposited data

Results flagged for a closer look

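The difference in H3K27me3 between Uhrf1 KO and WT had opposite signs at different stages. Over the 49 keratins it was -73.5 percentage points in mESC, 63.3 at EB week 1 and 57.1 at week 2. Over the 46 Krtap genes it was -84.8 points in mESC, 19.6 at week 1 and -34.8 at week 2. In mESC, with WT also cut to 722 domains, the values were -67.3 for keratins and -71.7 for Krtap genes, and with WT cut to equal covered length both were 0. Equal covered length reversed the Krtap signs in EBs, to -30.4 points at week 1 and 56.5 at week 2. The keratin values were then 32.7 and 93.9. At week 2 WT alone was cut, which could not lower the difference. With 1 library per genotype and stage, the difference between stages was not tested.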

How the results depend on the processing

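Of 50 values recomputed for the difference between genotypes over members, 41 differed by less than the counting interval (8 of them exactly 0, without a direction), 6 moved and 3 changed sign, and the cause was not tested. All 23 recomputed for keratins against Krtap genes, from WT lists of mESC and week 3 only, kept their direction within it. For H3K4me3 and Uhrf1 1 family had no marked gene, so stricter settings could not reverse the direction. The H3K4me3 difference fell to 6.12 points (-2.57 to 16.5) in mESC with domains above the median score and at week 3 with 50% covered. That of H3K27me3 at week 3 rose to 21.2 points (2.00 to 38.4) with 50% covered. The Uhrf1 KO minus WT difference over all 95 members turned to 1.05 points for mESC H3K4me3 with lists of equal number, and for mESC H3K9me3 to 1.05 with 50% of the window covered and 9.47 with lists of equal number, each from -2.11. For H3K27me3 at week 1 it went from 42.1 to 51.6 with a narrower window and 54.7 with 50% covered. With lists of equal covered length, added after the data were seen, it was 0 in mESC (from -78.9), 2.11 at week 1, 75.8 at week 2 (from 12.6) and 22.1 at week 3 (from 4.21). In mESC and at weeks 2 and 3 WT alone was cut, which could not lower the difference, and at week 1 Uhrf1 KO alone. The Krtap differences under this setting changed sign, to -30.4, 56.5 and 21.7 points at weeks 1, 2 and 3. Counting each domain once moved 10 of the 19 counts of marked members. No paired analysis was possible because each group is 1 library and no result comes from a test. Library totals were not used here, so depth was not weighed, and an absent domain does not show that a mark is absent.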
